A study of Mus musculus with 20 samples.

Results

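The genes described here are the chemokine and interleukin ligands, the secreted proteins by which tissue and immune cells call and instruct other immune cells. They were taken by name: a row of the array table belonged to the set when its platform annotation gave exactly 1 symbol and that symbol began with Ccl, Cxcl or Il, followed by a number and at most 1 letter, so receptors were left out. The rule found 66 genes among the 30145 genes with a row of their own, 33 chemokines (20 of the CC and 13 of the CXC class) and 33 interleukins. The rule itself uses names and no measured value, and all 66 ligands had 1 row each. Symbols were those of the platform annotation. The symbols Ccl21a, Ccl21b, Ccl21c, Ccl21d and Ccl27b occurred solely in rows shared with other symbols and were not used.

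RNA of mouse bladders and metastases was hybridised to 20 Affymetrix whole-transcript arrays, starting from 12 ng of total RNA extracted with a kit for fixed and paraffin-embedded tissue. All groups came from conditional knockout (CKO) mice of the FVB/N strain with floxed alleles, among them Rb1, and with p107-/-, so the controls lacked p107 as well. There was 1 array titled as a palbociclib metastasis, for which the labels give no treatment of its own and which is called the palbo metastasis here, and there were 4 arrays of metastases. The organ of the metastases is not given by the labels. A further 3 arrays were bladders of CKO mice treated with palbociclib, an inhibitor of the kinases Cdk4 and Cdk6, at 150 mg/kg each day by intraperitoneal injection over 28 days, together with the platinum drug CDDP (cisplatin) at 6 mg/kg each week. These are called treated bladders. Tumour bladders (7 arrays) had received an adenovirus that carries Cre recombinase, so that the floxed alleles can be deleted in those cells of the bladder that the virus reaches. Normal bladders (5 arrays, numbered 1, 2, 4, 5 and 6) came from CKO mice for which no virus is named. The labels give neither the animal of an array nor its sex or age, so the spread between arrays of a group may be partly technical.

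Chemokines bind receptors on leukocytes and guide them along a gradient into tissue. CC chemokines act largely on monocytes, macrophages, eosinophils and lymphocytes, whereas CXC chemokines include the main attractants of neutrophils, the interferon-induced attractants of activated T cells, and homeostatic members that place lymphocytes in lymphoid tissue. Interleukins act through other receptor families: the IL-1 family starts inflammation, IL-6 and its relatives signal through STAT3, the common gamma chain cytokines keep lymphocytes alive, and the IL-17 family acts on epithelium and stroma. In the bladder such ligands are known for the neutrophil influx of infection and for the inflammatory cells in and around tumours.

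Upstream sequence is shown here for 7 ligands. Cxcl1, Cxcl2, Cxcl3, Il6 and Cxcl10 were picked because each was highest on tumour bladder 6 and holds an NF-kappaB type motif, and Cxcl13 and Ccl8, the most variable ligands of the set, were highest on metastasis 1. Of the 12 ligands highest on tumour bladder 6, 8 had upstream sequence in the table, and the 3 not shown (Il1b, Il11 and Cxcl15) hold no match. Of the 10 ligands highest on metastasis 1, 9 had upstream sequence, and 1 of these (Ccl9) holds the NF-kappaB type motif. Each stretch ends at the base before the annotated start of transcription, reads 5′ to 3′ in the direction of the gene, and comes from RefSeq (build GRCm38.p6). Capitals mark matches on either strand to GGG and TTCC with any 3 bases between them, a motif of the type bound by NF-kappaB, or to GAAA and GAAA with any 2 bases between them, a motif of the type found in interferon-response elements. Matches of the first motif on both strands can overlap, as in the GGGAATTTCCC of Cxcl1, Cxcl2 and Cxcl3. The stretches are 120 bases long, and 220 bases for Cxcl10. On the plus strand of chromosome 5 lie those of Cxcl1 (chr5:90891125-90891244), Cxcl2 (chr5:90903779-90903898), Cxcl3 (chr5:90785981-90786100), Il6 (chr5:30012994-30013113) and Cxcl13 (chr5:95956819-95956938). That of Cxcl10 lies on the minus strand of chromosome 5 (chr5:92348890-92349109) and that of Ccl8 on the plus strand of chromosome 11 (chr11:82115065-82115184).
Cxcl1: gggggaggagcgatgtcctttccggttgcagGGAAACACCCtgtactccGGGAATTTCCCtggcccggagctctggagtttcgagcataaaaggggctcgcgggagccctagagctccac
Cxcl2: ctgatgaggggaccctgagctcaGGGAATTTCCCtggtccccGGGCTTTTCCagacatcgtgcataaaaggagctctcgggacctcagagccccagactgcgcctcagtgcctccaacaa
Cxcl3: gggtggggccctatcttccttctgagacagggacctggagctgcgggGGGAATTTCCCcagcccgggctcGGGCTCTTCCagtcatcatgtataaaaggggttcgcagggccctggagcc
Il6: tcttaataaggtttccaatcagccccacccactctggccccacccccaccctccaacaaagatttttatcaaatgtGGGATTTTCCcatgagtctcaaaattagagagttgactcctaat
Cxcl10: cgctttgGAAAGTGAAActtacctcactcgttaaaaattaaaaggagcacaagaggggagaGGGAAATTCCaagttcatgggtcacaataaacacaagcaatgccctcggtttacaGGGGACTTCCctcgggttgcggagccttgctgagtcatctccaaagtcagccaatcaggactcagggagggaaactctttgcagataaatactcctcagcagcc
Cxcl13: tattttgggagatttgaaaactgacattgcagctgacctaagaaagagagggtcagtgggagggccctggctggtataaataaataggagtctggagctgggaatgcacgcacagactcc
Ccl8: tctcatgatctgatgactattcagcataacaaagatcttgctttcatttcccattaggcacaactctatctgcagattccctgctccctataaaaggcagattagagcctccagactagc
The stretch of Cxcl10 holds both motifs, and in those of Cxcl13 and Ccl8 neither occurs. Among the 66 ligands, 46 had a window of 250 bases before the start in the RefSeq table and 20 had no entry. The NF-kappaB type motif was found in 10 of these 46 (21.7%: Ccl1, Ccl20, Ccl9, Cxcl1, Cxcl10, Cxcl2, Cxcl3, Il16, Il6 and Il9), against 1434 of 27025 genes (5.31%). The interferon type was found in 5 of 46 (10.9%: Ccl19, Cxcl10, Cxcl14, Il19 and Il4), against 936 of 27025 (3.46%). A match is a stretch of letters and was not measured as a bound site.

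Levels are on the log2 scale and are set against each other only for the same gene. All arrays gave values, with array medians from 5.11 to 5.48. On 8 arrays (metastases 3 and 4, tumour bladders 3, 4 and 5, and normal bladders 4, 5 and 6) marker lists stayed close to a common level: the macrophage list ran from 6.23 to 6.40 on these 8 and from 5.62 to 7.85 on the other 12, and the smooth muscle list from 6.84 to 7.07 against 4.99 to 10.24. These 8 were set apart after values were seen, so results are given for all arrays, then for the 12 and for the 8. The luminal urothelium list, which marks bladder lining, was at 4.80 on the palbo metastasis, at 5.43 to 7.14 on metastases, 7.53 to 8.88 on treated bladders, 5.47 to 10.54 on tumour bladders and 6.99 to 8.87 on normal bladders. The lowest bladder on that list was tumour bladder 6. The liver list was at 7.58 on metastasis 2 and between 4.82 and 6.07 on the 19 others. The level of Xist, which female cells make from their silenced X chromosome, reached 10.05 on treated bladder 3 and 11.74 and 11.71 on normal bladders 1 and 2, with 7.19 as the highest value of the others.

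A few ligands varied widely between arrays. The median SD over the 20 arrays was 0.245 for the 66 ligands and 0.270 for all genes. At the upper end, 13 ligands (19.7%) had an SD of 0.5 or more, against 11.2% of all genes, and 3 ligands (4.55%), Cxcl13, Ccl8 and Ccl6, had an SD of 1 or more, against 1.25%. The mean level of 26 ligands lay below 5.10, the 40th percentile over all rows, and 40 lay at or above it. Of the interleukins of T cells, Il2, Il4, Il5, Il13, Il17a and Il21 were in the dim part. None of these 6 had a range over 1 on the 20 arrays. Others, such as Il9 and Il22, were not in the dim part, with means of 5.88 and 5.19, and Il22 had a range of 1.31. Cxcl10, Cxcl11, Ccl19, Il31 and Il17d, named below for their differences, were in the dim part. Their means were 5.09, 4.89, 4.94, 4.59 and 4.41.

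**Figure D1:**
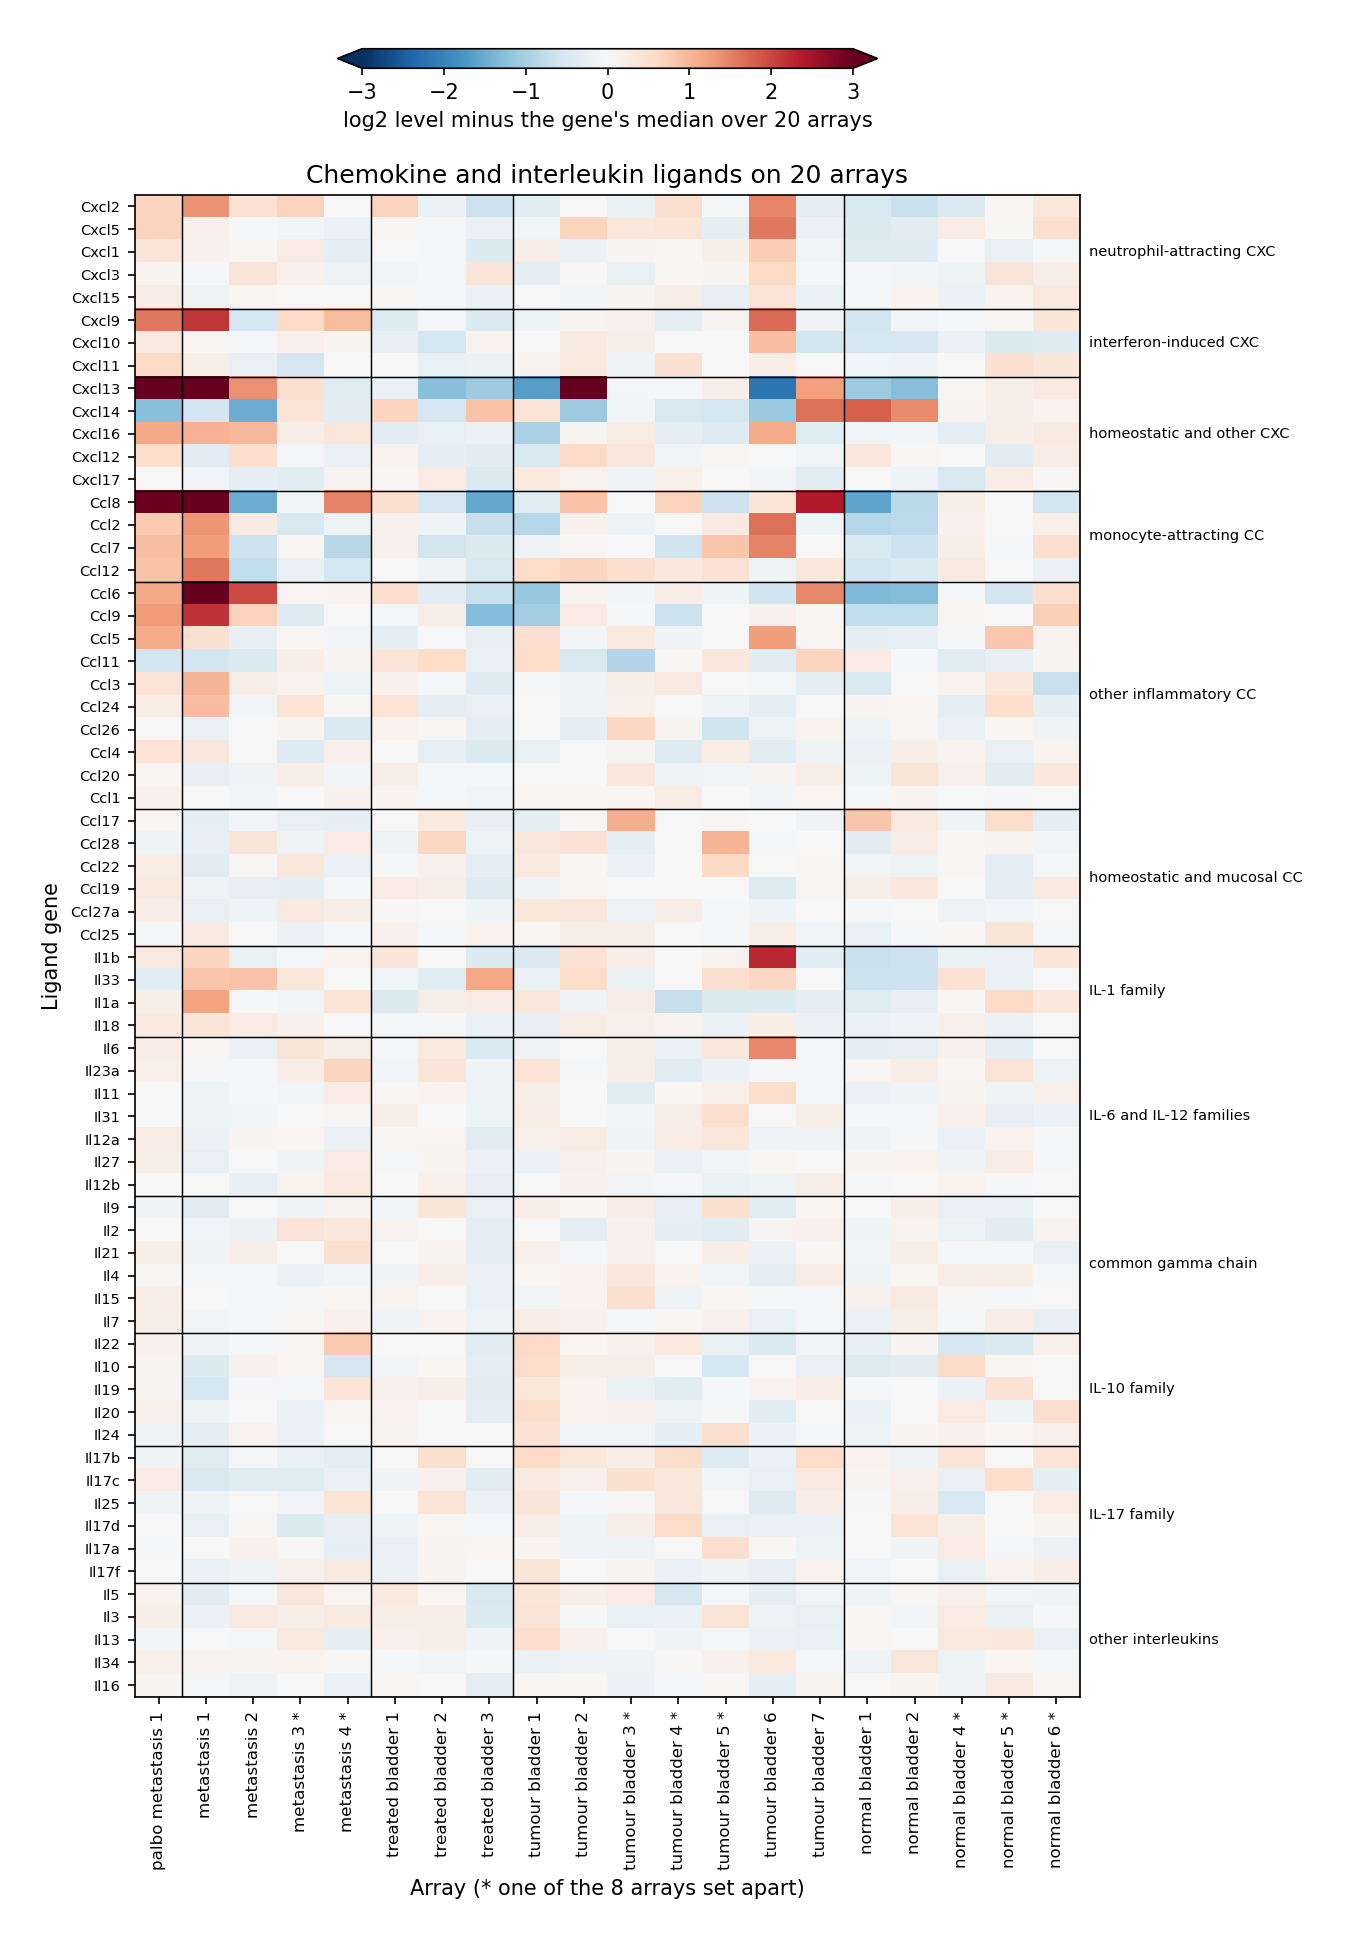
Levels of the 66 ligands (rows, grouped by role) on the 20 arrays (columns, by group), as the log2 level minus the gene's own median over the 20 arrays. Colours are clipped at -3 and 3. Strong colours lie in a few rows (Cxcl13, Ccl8, Ccl6, Cxcl14) and a few columns (palbo metastasis 1, metastasis 1, tumour bladder 6).

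The wide values were gathered on a few arrays. Tumour bladder 6 was the highest array for 12 ligands (18.2%, against 9.16% of all genes): Ccl2, Ccl5, Ccl7, Cxcl1, Cxcl10, Cxcl15, Cxcl2, Cxcl3, Cxcl5, Il11, Il1b and Il6. Metastasis 1 was the highest for 10 (15.2%, against 8.02%): Ccl12, Ccl24, Ccl3, Ccl6, Ccl8, Ccl9, Cxcl13, Cxcl9, Il18 and Il1a. Tumour bladder 5, 1 of the 8 arrays set apart, was the highest for 8 (12.1%, against 4.52%). These were Ccl22, Ccl28, Il12a, Il17a, Il24, Il3, Il31 and Il9. Counted by size, 12 ligands (18.2%) stood at least 1 above their median on metastasis 1, against 3.03% of all genes there. On tumour bladder 6 these were 9 (13.6%, against 3.77%), on the palbo metastasis 7 (10.6%, against 1.40%) and on tumour bladder 7 it was 4 (6.06%, against 2.61%). No other array had more than 2. The array with most ligands at their lowest was treated bladder 3, with 10 (15.2%, against 8.19% of all genes). It also had the lowest array median, 5.11. These counts describe single arrays and carry no test.

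**Figure D2:**
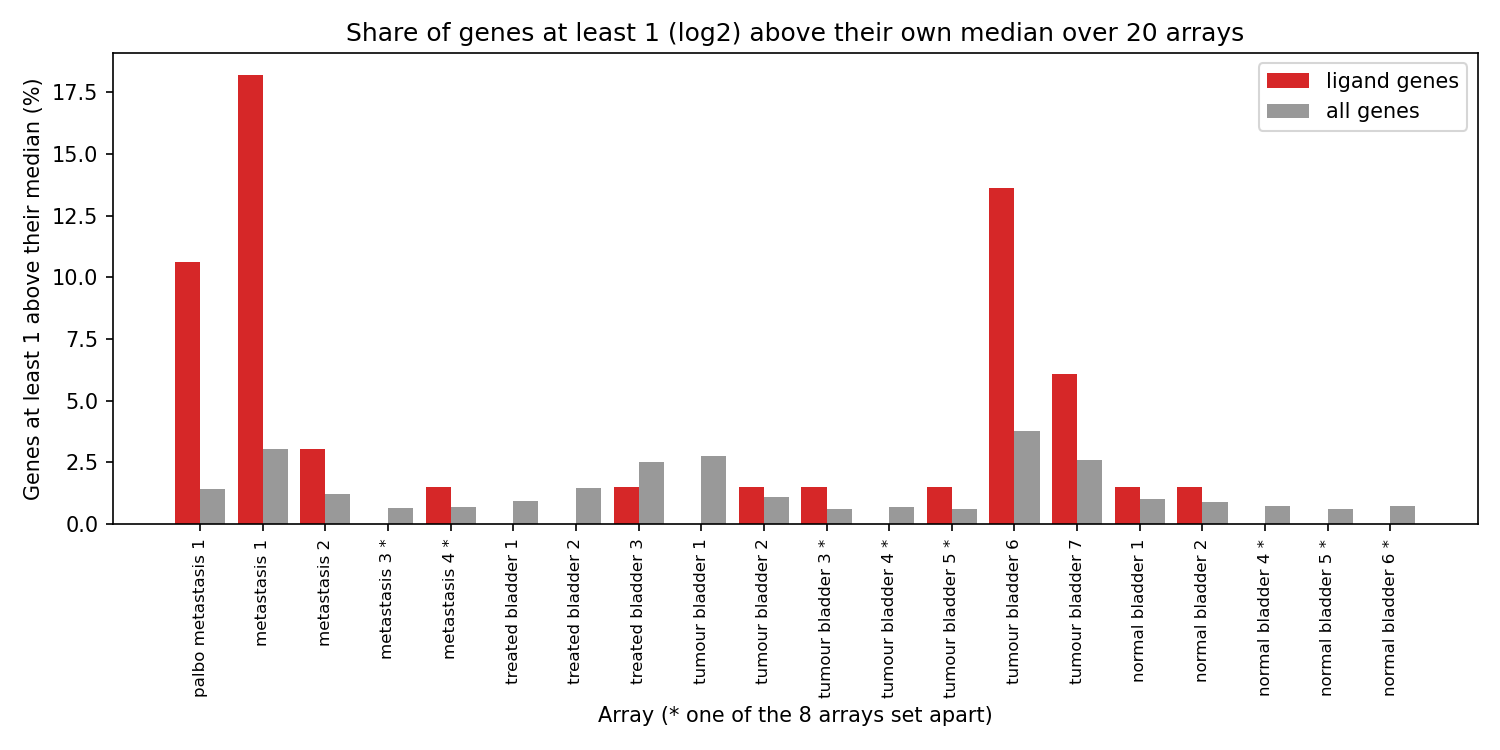
Share of genes at least 1 above their own median over the 20 arrays (log2), for the 66 ligands (red) and for all genes (grey), on each array. The ligand share was 18.2% on metastasis 1, 13.6% on tumour bladder 6 and 10.6% on the palbo metastasis, and 0 or near it on most other arrays.

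Several marker lists had their highest values on tumour bladder 6 or metastasis 1. The neutrophil list was at 7.01 on the palbo metastasis, at 5.80 to 6.21 on metastases, at 5.07 to 6.17 on treated bladders, 5.5 to 7.12 on tumour bladders and 5.0 to 6.07 on normal bladders, and its highest array was tumour bladder 6. Metastasis 1 was the highest array of the macrophage list, which was at 7.47 on the palbo metastasis, 6.25 to 7.85 on metastases, 5.71 to 6.26 on treated bladders, 5.73 to 6.92 on tumour bladders and 5.62 to 6.40 on normal bladders. The fibroblast list was also highest on tumour bladder 6, at 9.21, and ran from 6.28 to 8.26 on the other arrays. It was at 8.06 on the palbo metastasis and 7.55 on metastasis 1. The part of these cells in the ligand levels was not tested. In RNA of whole tissue, fewer cells of a type and less RNA per cell cannot be told apart.

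The neutrophil-attracting CXC ligands Cxcl1, Cxcl2, Cxcl3, Cxcl5 and Cxcl15 bind receptors of the Cxcr2 type and lie, apart from Cxcl5, as the unbroken row Cxcl3, Cxcl15, Cxcl1, Cxcl2 of protein-coding genes on chromosome 5. All 5 were highest on tumour bladder 6. Cxcl2 was at 5.84 on the palbo metastasis, at 6.54, 5.64, 5.90 and 5.20 on metastases 1 to 4, and at 5.89, 5.03 and 4.55 on treated bladders 1 to 3. On tumour bladders Cxcl2 ran from 4.87 to 6.68 with a median of 5.15, and on normal bladders 1, 2, 4, 5 and 6 it was at 4.73, 4.54, 4.80, 5.25 and 5.52. The arrays at 6.5 or more were tumour bladder 6 and metastasis 1, and normal bladders 1 and 2 were among the 3 lowest. The level of Cxcl5 was 6.19 on the palbo metastasis, 5.68, 5.49, 5.44 and 5.34 on metastases 1 to 4 and 5.54, 5.47 and 5.35 on treated bladders 1 to 3. Tumour bladders had a median Cxcl5 level of 5.86 (lowest 5.23, highest 7.10), and normal bladders 1, 2, 4, 5 and 6 had 5.09, 5.19, 5.73, 5.56 and 6.02. Tumour bladder 6 stood apart, while the palbo metastasis and tumour bladder 2 came next at 6.19 and 6.18. Cxcl1 reached 5.58 on the palbo metastasis, 5.33, 5.23, 5.45 and 4.91 on metastases 1 to 4 and 5.20, 5.16 and 4.77 on treated bladders 1 to 3. The Cxcl1 values on tumour bladders went no lower than 5.01 and no higher than 5.92, around a median of 5.29, and normal bladders 1, 2, 4, 5 and 6 gave 4.81, 4.82, 5.18, 4.98 and 5.15. All 7 tumour bladders lay above the mean of normal bladders, but the groups overlapped. Levels of Cxcl3 were 5.95 on the palbo metastasis, 5.81, 6.24, 6.00 and 5.72 on metastases 1 to 4, and 5.79, 5.80 and 6.23 on treated bladders 1 to 3. Across tumour bladders the Cxcl3 level spanned 5.60 to 6.46 (median 5.89), next to 5.83, 5.79, 5.72, 6.26 and 6.03 on normal bladders 1, 2, 4, 5 and 6. Tumour bladder 6 stood above the other tumour bladders, with normal bladder 5, metastasis 2 and treated bladder 3 next to it. Cxcl15 ran from 4.61 to 5.22 over all arrays. Cxcr2, the neutrophil receptor of these ligands, was at 7.37 on tumour bladder 6. On the palbo metastasis it was at 6.38, and elsewhere at 6.01 or less. Cxcr2 is itself a gene of the neutrophil list, and it was chosen after its values were seen.

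The interferon-induced ligands Cxcl9, Cxcl10 and Cxcl11 bind Cxcr3 on activated T and NK cells. For Cxcl9, the palbo metastasis was at 6.51, metastases 1 to 4 at 7.07, 4.41, 5.52 and 5.89, and treated bladders 1 to 3 at 4.56, 4.91 and 4.52. The tumour bladders lay between 4.64 and 6.64 in Cxcl9 (median 5.03), and the normal bladders, in the order 1, 2, 4, 5 and 6, at 4.36, 4.85, 4.91, 4.97 and 5.3. Metastasis 1, tumour bladder 6 and the palbo metastasis stood above 6.5, and the 17 others at 5.89 or less. Cxcl10 was at 5.43 on the palbo metastasis, at 5.21, 5.10, 5.31 and 5.24 on metastases 1 to 4, and at 4.90, 4.61 and 5.26 on treated bladders 1 to 3. On tumour bladders Cxcl10 ran from 4.61 to 6.06 with a median of 5.17, and on normal bladders 1, 2, 4, 5 and 6 it was at 4.62, 4.66, 4.99, 4.74 and 4.78. On all 4 metastases Cxcl10 was above every normal bladder, whereas tumour bladder 7, at 4.61, lay below all of them. The level of Cxcl11 was 5.44 on the palbo metastasis, 5.0, 4.61, 4.32 and 4.83 on metastases 1 to 4 and 4.81, 4.62 and 4.64 on treated bladders 1 to 3. Tumour bladders had a median Cxcl11 level of 4.92 (lowest 4.70, highest 5.29), and normal bladders 1, 2, 4, 5 and 6 had 4.75, 4.71, 4.83, 5.28 and 5.19. Cxcl11 was highest on the palbo metastasis and was at 5.06 on tumour bladder 6, the top array of Cxcl10.

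Of the homeostatic and other CXC ligands, Cxcl13 attracts B cells through Cxcr5, Cxcl14 is made by resting epithelium, and Cxcl16 is a membrane-bound chemokine that binds Cxcr6. Cxcl13 reached 13.41 on the palbo metastasis, 13.52, 9.99, 9.09 and 8.27 on metastases 1 to 4 and 8.42, 7.37 and 7.57 on treated bladders 1 to 3. The Cxcl13 values on tumour bladders went no lower than 6.43 and no higher than 11.88, around a median of 8.59, and normal bladders 1, 2, 4, 5 and 6 gave 7.53, 7.36, 8.67, 8.81 and 8.93. It had the widest range of the set, from 6.43 on tumour bladder 6 to 13.52 on metastasis 1, and on the 8 arrays it stayed between 8.27 and 9.09. The receptor Cxcr5 ran from 4.12 to 5.08 and was at 4.63 and 4.5 on the palbo metastasis and metastasis 1; it too was chosen after its values were seen. The B and plasma cell list was at 5.60 on the palbo metastasis and at 4.88 to 5.22 on metastases, at 4.88 to 5.18 on treated bladders, 4.88 to 5.86 on tumour bladders and 4.87 to 5.27 on normal bladders.

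Levels of Cxcl14 were 5.64 on the palbo metastasis, 6.34, 5.40, 7.29 and 6.56 on metastases 1 to 4, and 7.53, 6.37 and 7.74 on treated bladders 1 to 3. Across tumour bladders the Cxcl14 level spanned 5.77 to 8.53 (median 6.41), next to 8.68, 8.30, 6.97, 7.06 and 6.98 on normal bladders 1, 2, 4, 5 and 6. Normal bladders 1 and 2 and tumour bladder 7 were the 3 arrays above 8, and these were also the arrays with the highest smooth muscle list, at 9.10, 9.05 and 10.24. The lowest were metastasis 2, the palbo metastasis and tumour bladder 6 (5.40, 5.64 and 5.77). For Cxcl16, the palbo metastasis was at 7.73, metastases 1 to 4 at 7.64, 7.57, 6.76 and 6.94, and treated bladders 1 to 3 at 6.27, 6.36 and 6.42. The tumour bladders lay between 5.62 and 7.71 in Cxcl16 (median 6.32), and the normal bladders, in the order 1, 2, 4, 5 and 6, at 6.52, 6.52, 6.29, 6.80 and 6.86. The palbo metastasis, tumour bladder 6 and metastases 1 and 2 stood at 7.57 or more and the other 16 arrays at 6.94 or less. Cxcl12, which holds Cxcr4-bearing cells in bone marrow and stroma, ran from 6.84 to 7.88, and Cxcl17, a mucosal chemokine, from 5.16 to 5.94, with no group apart from the rest.

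**Figure D3:**
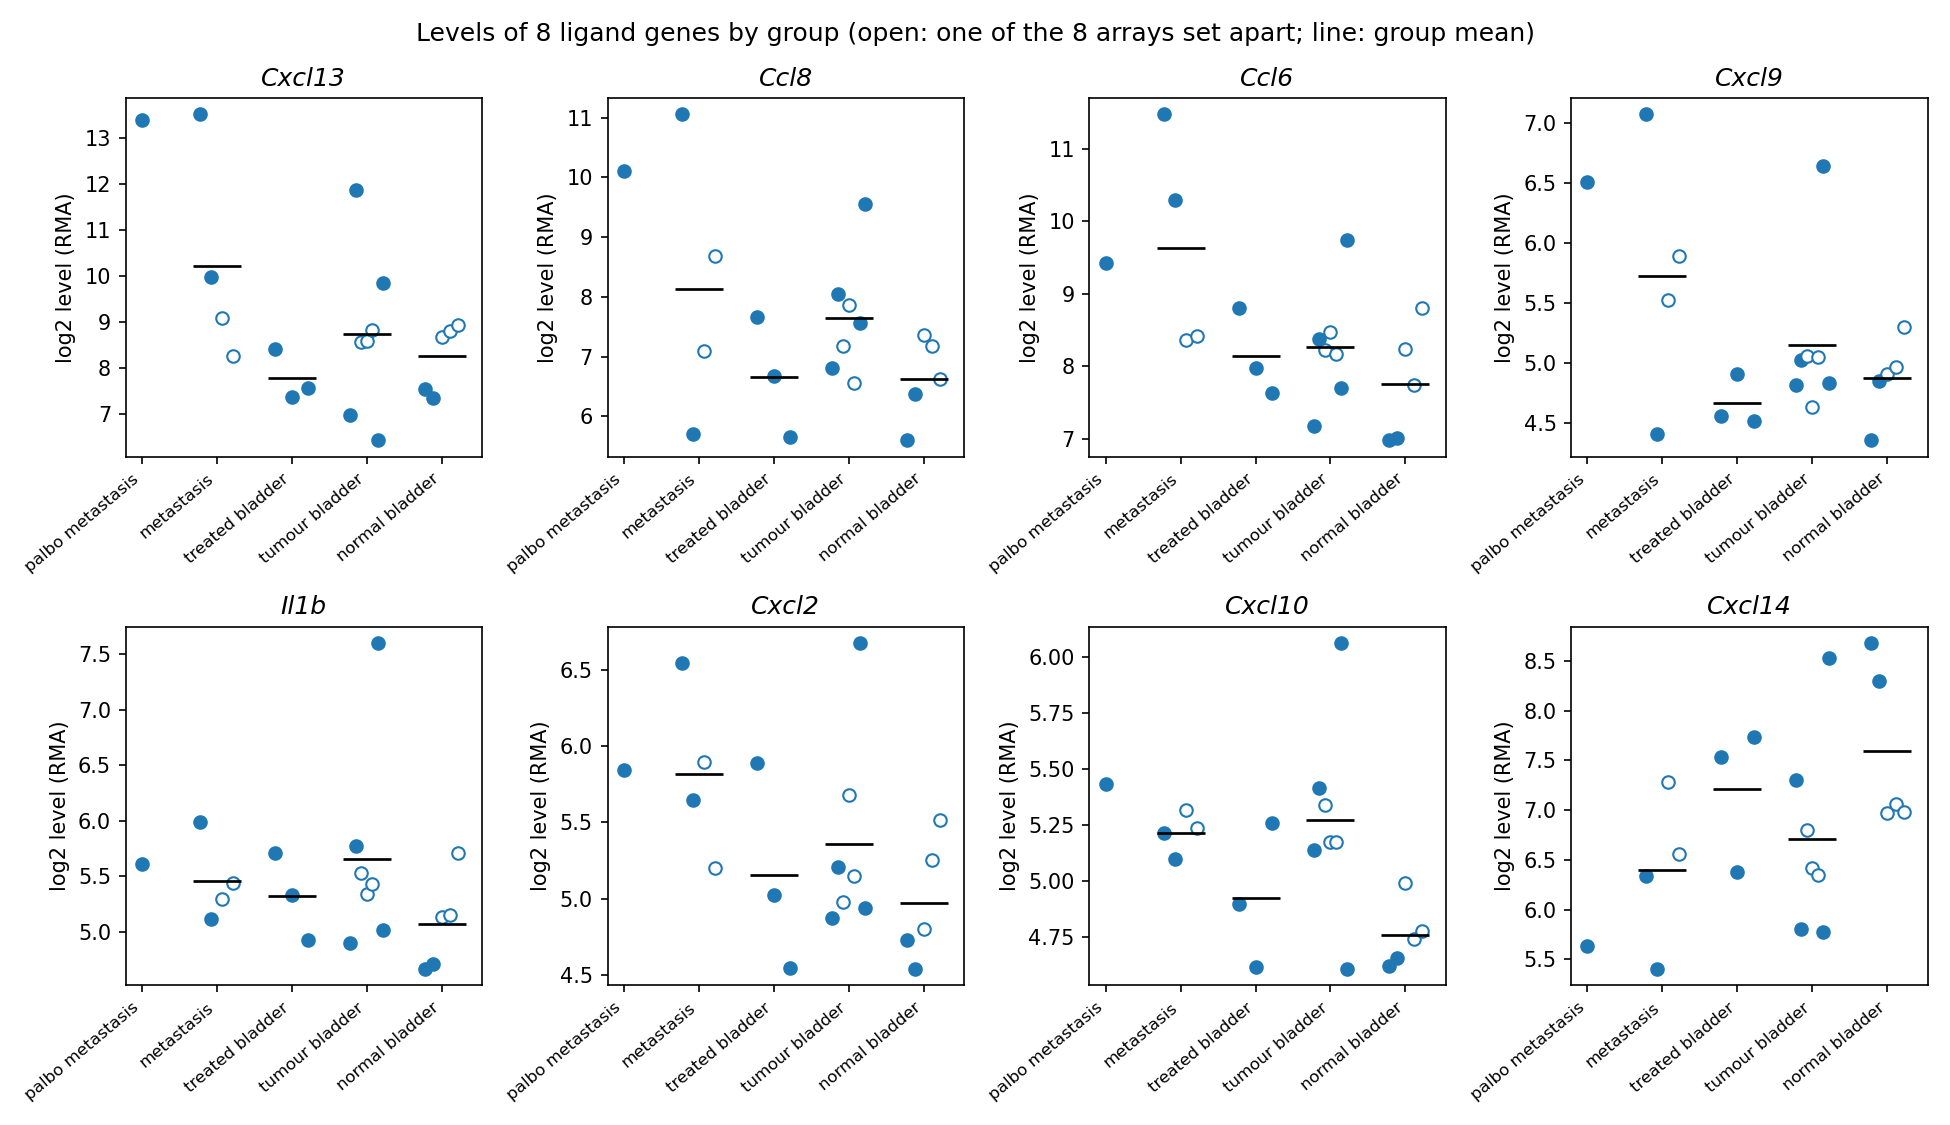
Log2 levels (RMA) of 8 ligands on each array by group; open points are the 8 arrays that stayed close to a common level, lines are group means. Cxcl13, Ccl8 and Ccl6 reached their top on metastasis 1, Il1b, Cxcl2 and Cxcl10 on tumour bladder 6, and Cxcl14 on normal bladder 1.

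The list called monocyte-attracting here holds Ccl2, Ccl7, Ccl8 and Ccl12, of which Ccl2, Ccl7 and Ccl12 act largely through Ccr2. Ccl2, Ccl7, Ccl11, Ccl12, Ccl8 and Ccl1 follow each other in this order on chromosome 11. Ccl8 was at 10.11 on the palbo metastasis, at 11.05, 5.71, 7.09 and 8.68 on metastases 1 to 4, and at 7.66, 6.67 and 5.65 on treated bladders 1 to 3. On tumour bladders Ccl8 ran from 6.56 to 9.55 with a median of 7.56, and on normal bladders 1, 2, 4, 5 and 6 it was at 5.60, 6.38, 7.36, 7.18 and 6.63. The 3 arrays above 9 were metastasis 1, the palbo metastasis and tumour bladder 7, whereas metastasis 2, at 5.71, was among the lowest. The level of Ccl2 was 7.43 on the palbo metastasis, 7.97, 6.90, 6.21 and 6.49 on metastases 1 to 4 and 6.78, 6.53 and 5.95 on treated bladders 1 to 3. Tumour bladders had a median Ccl2 level of 6.66 (lowest 5.79, highest 8.30), and normal bladders 1, 2, 4, 5 and 6 had 5.81, 5.86, 6.79, 6.64 and 6.81. Tumour bladder 6, metastasis 1 and the palbo metastasis were the 3 arrays above 7, and tumour bladder 1 was the lowest. Ccl7 reached 7.13 on the palbo metastasis, 7.48, 5.61, 6.28 and 5.40 on metastases 1 to 4 and 6.39, 5.70 and 5.83 on treated bladders 1 to 3. The Ccl7 values on tumour bladders went no lower than 5.64 and no higher than 7.71, around a median of 6.25, and normal bladders 1, 2, 4, 5 and 6 gave 5.78, 5.61, 6.42, 6.18 and 6.75. It was high on the same 3 arrays, with tumour bladder 5 next at 7.06. Levels of Ccl12 were 6.05 on the palbo metastasis, 6.76, 4.45, 4.97 and 4.65 on metastases 1 to 4, and 5.21, 5.08 and 4.70 on treated bladders 1 to 3. Across tumour bladders the Ccl12 level spanned 5.07 to 5.84 (median 5.61), next to 4.64, 4.76, 5.45, 5.17 and 4.99 on normal bladders 1, 2, 4, 5 and 6. Metastasis 1 and the palbo metastasis were the highest arrays, and metastasis 2 the lowest. Neighbours in this row had unlike values: on metastasis 1 Ccl2, Ccl7, Ccl12 and Ccl8 were 1.32, 1.25, 1.57 and 3.87 above their medians, while Ccl11, an attractant of eosinophils, was at -0.57 and Ccl1 at -0.02 relative to theirs. On tumour bladder 6 Ccl2 and Ccl7 were 1.65 and 1.48 above their medians, and Ccl12 and Ccl8 at -0.12 and 0.38.

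Ccl5, Ccl9, Ccl6, Ccl3 and Ccl4 form the other row on chromosome 11. Ccl6 and Ccl9 are macrophage products of rodents that bind Ccr1, and Ccl3, Ccl4 and Ccl5 attract T cells and monocytes. For Ccl6, the palbo metastasis was at 9.43, metastases 1 to 4 at 11.48, 10.29, 8.36 and 8.41, and treated bladders 1 to 3 at 8.80, 7.98 and 7.64. The tumour bladders lay between 7.17 and 9.74 in Ccl6 (median 8.23), and the normal bladders, in the order 1, 2, 4, 5 and 6, at 6.98, 7.01, 8.24, 7.74 and 8.81. The top arrays were metastases 1 and 2 and tumour bladder 7, and normal bladders 1 and 2 were the lowest. Ccl9 was at 8.42 on the palbo metastasis, at 9.30, 7.83, 6.76 and 7.13 on metastases 1 to 4, and at 7.08, 7.31 and 5.85 on treated bladders 1 to 3. On tumour bladders Ccl9 ran from 6.13 to 7.39 with a median of 7.15, and on normal bladders 1, 2, 4, 5 and 6 it was at 6.39, 6.40, 7.21, 7.13 and 7.86. It was highest on metastasis 1 and the palbo metastasis. The level of Ccl5 was 6.44 on the palbo metastasis, 5.77, 5.08, 5.38 and 5.24 on metastases 1 to 4 and 5.02, 5.35 and 5.07 on treated bladders 1 to 3. Tumour bladders had a median Ccl5 level of 5.38 (lowest 5.21, highest 6.59), and normal bladders 1, 2, 4, 5 and 6 had 5.05, 5.08, 5.26, 6.14 and 5.43. It stood above 6 on tumour bladder 6, the palbo metastasis and normal bladder 5. Ccl3 was highest on metastasis 1 (6.73) and the palbo metastasis (6.12) and ran from 5.02 to 6.02 elsewhere. Ccl4 stayed between 4.75 and 5.55.

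Among the other CC ligands, Ccl24, which binds Ccr3 on eosinophils, was at 6.09 on metastasis 1 and at 5.66 or less on the 19 other arrays. Ccl11 reached 5.18 on the palbo metastasis, 5.15, 5.29, 5.91 and 5.79 on metastases 1 to 4 and 6.13, 6.26 and 5.5 on treated bladders 1 to 3. The Ccl11 values on tumour bladders went no lower than 4.85 and no higher than 6.36, around a median of 5.76, and normal bladders 1, 2, 4, 5 and 6 gave 5.97, 5.68, 5.35, 5.48 and 5.80. The lowest arrays were tumour bladder 3, metastasis 1 and the palbo metastasis. Levels of Ccl17 were 5.28 on the palbo metastasis, 4.94, 5.13, 4.98 and 4.91 on metastases 1 to 4, and 5.21, 5.5 and 4.96 on treated bladders 1 to 3. Across tumour bladders the Ccl17 level spanned 4.94 to 6.31 (median 5.23), next to 6.03, 5.48, 5.11, 5.73 and 4.92 on normal bladders 1, 2, 4, 5 and 6. Ccl17, a ligand of Ccr4 made by dendritic cells, was highest on tumour bladder 3 and normal bladder 1, and all 4 metastases were below the means of tumour and normal bladders. Ccl19, the Ccr7 ligand of lymph nodes, ran from 4.56 to 5.27; the mouse genome holds near-identical copies of it, so its level may mix them. Ccl25, the Ccr9 ligand of the gut and thymus, stayed between 5.74 and 6.35. The remaining members Ccl1, Ccl20, Ccl22, Ccl26, Ccl27a and Ccl28 had ranges from 0.309 (Ccl1) to 1.35 (Ccl28).

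In the IL-1 family, Il1b and Il1a encode the inflammatory cytokines IL-1 beta and IL-1 alpha, and Il33 and Il18 encode relatives stored in epithelium and stroma. For Il1b, the palbo metastasis was at 5.61, metastases 1 to 4 at 5.99, 5.12, 5.29 and 5.44, and treated bladders 1 to 3 at 5.71, 5.33 and 4.92. The tumour bladders lay between 4.90 and 7.60 in Il1b (median 5.43), and the normal bladders, in the order 1, 2, 4, 5 and 6, at 4.66, 4.70, 5.13, 5.15 and 5.71. The next tumour bladder after tumour bladder 6 was at 5.77, and normal bladders 1 and 2 were the lowest arrays. Il1a was at 5.27 on the palbo metastasis, at 6.31, 5.07, 5.01 and 5.51 on metastases 1 to 4, and at 4.66, 5.28 and 5.33 on treated bladders 1 to 3. On tumour bladders Il1a ran from 4.41 to 5.43 with a median of 4.81, and on normal bladders 1, 2, 4, 5 and 6 it was at 4.73, 4.84, 5.12, 5.66 and 5.40. Metastasis 1 was the only array above 6, and tumour bladder 6 was at 4.69. Il1a and Il1b are neighbours on chromosome 2. The level of Il33 was 4.81 on the palbo metastasis, 5.95, 5.98, 5.43 and 5.13 on metastases 1 to 4 and 5.04, 4.80 and 6.29 on treated bladders 1 to 3. Tumour bladders had a median Il33 level of 5.12 (lowest 4.92, highest 5.74), and normal bladders 1, 2, 4, 5 and 6 had 4.48, 4.47, 5.55, 4.89 and 5.13. Treated bladder 3 and metastases 2 and 1 were the highest, and normal bladders 1 and 2 the lowest. Il18 had a narrow range, from 5.01 to 5.61.

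Il6, the cytokine of the acute-phase response, was at 6.13 on tumour bladder 6 and between 4.24 and 5.05 on the 19 other arrays, so its distribution was that of a single high array. Il11, a relative of Il6, was also highest there (5.56; 4.67 to 5.29 elsewhere). Il23a, a subunit of IL-23, ran from 5.53 to 6.52, and Il31, an itch cytokine of T cells, from 4.31 to 5.05. The ranges of Il12a, Il12b and Il27 were 0.663, 0.545 and 0.448.

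Of the IL-17 family, Il17c, Il17b and Il17d had lower means in metastases than in tumour and normal bladders. Il17c reached 5.49 on the palbo metastasis, 4.78, 4.87, 4.86 and 5.03 on metastases 1 to 4 and 5.12, 5.35 and 4.90 on treated bladders 1 to 3. The Il17c values on tumour bladders went no lower than 5.02 and no higher than 5.69, around a median of 5.5, and normal bladders 1, 2, 4, 5 and 6 gave 5.32, 5.39, 5.02, 5.75 and 4.95. Il17c, an epithelial member of the family, was lower on each of the 4 metastases than the means of both tumour and normal bladders, but the palbo metastasis was not, and metastasis 4 lay just above tumour bladder 6 (5.03 and 5.02). Levels of Il17b were 5.01 on the palbo metastasis, 4.78, 5.10, 4.94 and 4.84 on metastases 1 to 4, and 5.12, 5.61 and 5.13 on treated bladders 1 to 3. Across tumour bladders the Il17b level spanned 4.75 to 5.73 (median 5.45), next to 5.23, 4.98, 5.52, 5.14 and 5.55 on normal bladders 1, 2, 4, 5 and 6. Tumour bladders 5 and 6 were as low as the metastases. For Il17d, the palbo metastasis was at 4.42, metastases 1 to 4 at 4.20, 4.44, 4.0 and 4.16, and treated bladders 1 to 3 at 4.26, 4.45 and 4.37. The tumour bladders lay between 4.19 and 4.96 in Il17d (median 4.28), and the normal bladders, in the order 1, 2, 4, 5 and 6, at 4.41, 4.82, 4.58, 4.41 and 4.48. All 4 metastases were below the means of tumour and normal bladders, metastasis 2 only just below the tumour mean. Metastasis 2 was above the tumour median and above normal bladders 1 and 5. Il17a ran from 3.82 to 4.57, Il17f from 4.37 to 4.99 and Il25 from 5.35 to 6.24.

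Of the IL-10 family, Il22, which acts on epithelium, ran from 4.67 to 5.98 with its top on metastasis 4. Il24, Il20, Il19 and Il10 follow each other on chromosome 1 and had ranges of 0.775, 0.868, 0.964 and 1.10. The 6 common gamma chain cytokines Il2, Il4, Il7, Il9, Il15 and Il21 had ranges from 0.470 (Il7) to 0.814 (Il9). The other interleukins, Il3, Il5, Il13, Il16 and Il34, had ranges from 0.537 (Il34) to 0.869 (Il5). Il34, a ligand of the macrophage receptor Csf1r, was highest on normal bladder 2 (5.70) and tumour bladder 6 (5.66).

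Group differences were tested with limma on all 30145 genes, 2-sided, with Benjamini-Hochberg adjustment and a threshold of 0.05. The number of arrays limits the precision, and since comparisons share groups they are not independent of each other. No gene passed in any of the 5 comparisons over all arrays, so every ligand difference that follows is a value that did not pass.

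**Figure D4:**
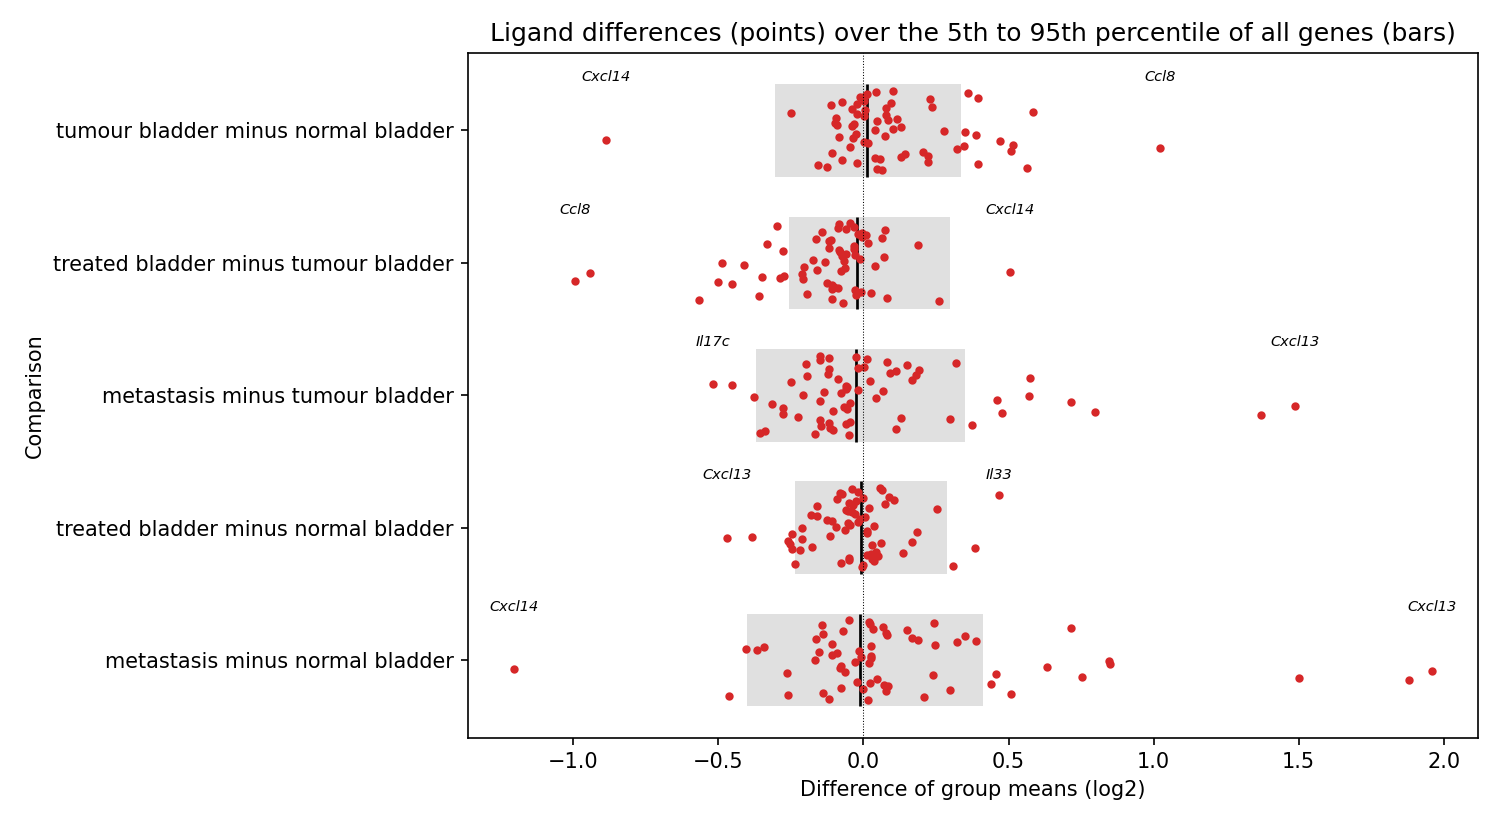
Differences of group means (log2) for the 66 ligands (red points) in each comparison, over the range from the 5th to the 95th percentile of all 30145 genes (grey bars) and their median (black lines); the ligands at the extremes are named. Cxcl13 had the highest difference in both comparisons of metastases, 1.49 and 1.96, and no ligand passed the test.

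The first comparison asked which ligands differ in bladders after Cre. In tumour bladders, all 4 monocyte-attracting CC ligands had higher means than in normal bladders, with a median difference of 0.48. All 3 interferon-induced ligands were higher too, with a median of 0.28, and 3 of the 5 neutrophil-attracting ligands, with a median of 0.35. Over the 66 ligands, 44 were higher and 22 lower, with a median difference of 0.047, against 53.1% of all genes higher and a median of 0.012. Cxcl10 was at 5.27 ± 0.43 in tumour bladders (SD, n = 7) and 4.76 ± 0.14 in normal bladders (SD, n = 5), a log2 difference of 0.51 (SE 0.18). Cxcl1 was at 5.33 ± 0.29 in tumour bladders (SD, n = 7) and 4.99 ± 0.18 in normal bladders (SD, n = 5), a log2 difference of 0.35 (SE 0.14). Both were higher than the normal mean on most tumour arrays, Cxcl10 on 6 of 7 and Cxcl1 on 7 of 7. Il31 was at 4.71 ± 0.19 in tumour bladders (SD, n = 7) and 4.48 ± 0.15 in normal bladders (SD, n = 5), a log2 difference of 0.23 (SE 0.10). Ccl8 had the largest difference, 1.02 (SE 0.70), and Ccl12 was higher by 0.56 (SE 0.29). In the other direction Cxcl14, the epithelial chemokine, was at 6.71 ± 0.96 in tumour bladders (SD, n = 7) and 7.60 ± 0.83 in normal bladders (SD, n = 5), a log2 difference of -0.89 (SE 0.47), with tumour bladder 7 the 1 array above the normal mean. Il1a, Ccl19 and Il16 had differences of -0.25, -0.16 and -0.10.

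By limma none of the 66 ligands passed (smallest adjusted p = 0.998). At an unadjusted p under 0.05 there were 1281 genes, among them 3 ligands that were higher (Cxcl1, Cxcl10 and Il31; 2.39% of all genes) and 0 that were lower (1.86%). The groups overlapped for every ligand, and 0.0829% of all genes were separated in either direction. Over the 12 arrays Cxcl10 differed by 0.67, Cxcl1 by 0.55, Ccl8 by 2.01 and Cxcl14 by -1.64. Over the 8 the same differences were 0.39, 0.18, 0.14 and -0.48. On the 12 arrays 17 ligands lay wholly above (7.67% of all genes) and 4 wholly below (4.67%) the normal bladders. There these are normal bladders 1 and 2, the 2 with high Xist. They were the most alike pair of all arrays, with a correlation of 0.977 over all genes. At an unadjusted p under 0.05 the 12 arrays gave 2 higher ligands (Cxcl1 and Il33; 1.48% of all genes) and 2 lower ones (Ccl17 and Cxcl14; 1.86%). Without tumour bladder 6 the list medians were 0.03 for the interferon-induced ligands, of which 2 of 3 were then higher, and 0.14 for the neutrophil-attracting ones, and Cxcl9 differed by 0.03, against 0.28 with it. Without normal bladder 1 the interferon-induced median was 0.15. Leaving out any 1 of tumour bladders 2, 4 and 6 or normal bladders 1, 2 and 4 left 2 of the 3 interferon-induced ligands higher. With tumour bladder 6 left out, the differences of Il1b, Il6 and Cxcl2 were 0.26, 0.16 and 0.17, against 0.58, 0.36 and 0.39 with it. The macrophage list was higher in 12 of 12 genes (median 0.26) and the neutrophil list in 11 of 12 (median 0.31), while the smooth muscle list was lower in 7 of 7 (median -0.95). Their part in the ligand differences was not tested.

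The next comparison set bladders of mice given palbociclib with CDDP against tumour bladders. The means of 55 of the 66 ligands were lower and 11 higher in treated bladders, with a median difference of -0.086, against -0.023 and 42.6% of all genes higher. With each array centred on its median the counts were 42 lower and 24 higher, and 62.1% of all genes were then higher. All 4 monocyte-attracting CC ligands (median -0.53), all 3 interferon-induced ligands (median -0.35) and 4 of the 5 neutrophil-attracting ligands (median -0.20) were lower. Ccl5 was at 5.15 ± 0.17 in treated bladders (SD, n = 3) and 5.60 ± 0.49 in tumour bladders (SD, n = 7), a log2 difference of -0.45 (SE 0.27). Cxcl10 was at 4.92 ± 0.32 in treated bladders (SD, n = 3) and 5.27 ± 0.43 in tumour bladders (SD, n = 7), a log2 difference of -0.35 (SE 0.21). For Ccl5, Cxcl10, Cxcl1 and Cxcl11, all 3 treated arrays lay below the tumour mean. Cxcl1 and Cxcl11 differed by -0.29 (SE 0.17) and -0.27 (SE 0.16), and Ccl8 and Cxcl13 by -0.99 (SE 0.83) and -0.94 (SE 1.01). Higher in treated bladders were Cxcl14, at 7.22 ± 0.74 in treated bladders (SD, n = 3) and 6.71 ± 0.96 in tumour bladders (SD, n = 7), a log2 difference of 0.51 (SE 0.55), and Ccl11, by 0.26 (SE 0.29). Il1a and Ccl19 differed by 0.19 and 0.08.

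None of these passed (limma, adjusted p = 0.99995 for each ligand). At an unadjusted p under 0.05 there were 103 genes and 0 ligands, where 0.182% of all genes were higher and 0.159% lower, and no ligand was separated between the groups (0.073% higher and 0.0564% lower among all genes). Over the 12 arrays Cxcl11 was the 1 ligand wholly below the tumour bladders (0.405%), and 0 lay above (0.222%). Without tumour bladder 6, 3 of the 5 neutrophil-attracting ligands were lower, with a median of -0.018, and Ccl5, Cxcl10 and Cxcl1 differed by -0.29, -0.22 and -0.19. Leaving out treated bladder 3 gave -0.10 for the median of the neutrophil-attracting list, -0.15 for Cxcl1, 0.24 for Cxcl14 and 0.49 for Ccl11. Leaving out treated bladder 2 gave -0.19 for Cxcl10, 0.93 for Cxcl14 and 0.11 for Ccl11, and leaving out treated bladder 1 gave a neutrophil-attracting list median of -0.36. Cxcl13 differed by -0.42 without tumour bladder 2, Ccl8 by -0.49 without treated bladder 3, and Il1b by -0.01 without tumour bladder 6, against -0.33 with it. The macrophage list was lower in 12 of 12 genes (median -0.32) and the neutrophil list in 11 of 12 (median -0.34), and the smooth muscle and luminal urothelium lists were higher in 7 of 7 and 8 of 8. Their part in these differences was not tested.

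Against normal bladders, the treated bladders had 25 ligands higher and 41 lower (median -0.032, against -0.009 and 46.7% of all genes higher), and with arrays centred 42 higher and 24 lower (67.2% of all genes higher). Il33 was at 5.38 ± 0.80 in treated bladders (SD, n = 3) and 4.91 ± 0.45 in normal bladders (SD, n = 5), a log2 difference of 0.47 (SE 0.33). Of the 3 treated arrays, 2 were above the normal mean, and without treated bladder 3 the difference was 0.01. With 1 array left out at a time the Ccl11 difference ran from 0.16 to 0.54 and that of Ccl4 from -0.33 to -0.13. Ccl11 and Cxcl10 differed by 0.31 and 0.17, and Cxcl11, Ccl4, Il16 and Il17d by -0.26, -0.22, -0.13 and -0.18. By limma 0 ligands passed (adjusted p = 0.99997 for Il33). At an unadjusted p under 0.05 there were 108 genes and 0 ligands (0.209% of all genes higher, 0.149% lower), and 0 ligands were separated (0.332% and 0.318%). On the 12 arrays 7 ligands lay above (6.23%) and 4 below (6.08%) normal bladders 1 and 2, and at an unadjusted p under 0.05 Ccl17 was lower (0.634%).

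The metastases were compared with tumour bladders. Ccl6, a macrophage chemokine, Cxcl16, the membrane-bound ligand of Cxcr6, and Il1a had higher means, and the IL-17 family members Il17c and Il17b lower ones. Ccl6 was at 9.64 ± 1.52 in metastases (SD, n = 4) and 8.27 ± 0.79 in tumour bladders (SD, n = 7), a log2 difference of 1.37 (SE 0.56). Cxcl16 was at 7.23 ± 0.44 in metastases (SD, n = 4) and 6.51 ± 0.65 in tumour bladders (SD, n = 7), a log2 difference of 0.72 (SE 0.28). Il1a was at 5.48 ± 0.60 in metastases (SD, n = 4) and 4.90 ± 0.37 in tumour bladders (SD, n = 7), a log2 difference of 0.57 (SE 0.25). For each of these 3 ligands, all 4 metastases lay above the tumour mean. Il17c was at 4.88 ± 0.11 in metastases (SD, n = 4) and 5.40 ± 0.24 in tumour bladders (SD, n = 7), a log2 difference of -0.52 (SE 0.15). Il17b was at 4.92 ± 0.14 in metastases (SD, n = 4) and 5.37 ± 0.39 in tumour bladders (SD, n = 7), a log2 difference of -0.45 (SE 0.18). For both, all 4 metastases lay below the tumour mean. Cxcl13 and Ccl9 had differences of 1.49 (SE 0.92) and 0.80 (SE 0.42), Ccl24 of 0.38 (SE 0.19), and Cxcl11 and Il31 of -0.28 and -0.20. All 6 measured homeostatic and mucosal CC ligands were lower, with a median of -0.13. Over the set 25 ligands were higher and 41 lower (median -0.058, against -0.026 and 43.9% of all genes higher), and 33 each with arrays centred, where 57.3% of all genes were higher.

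The test gave an adjusted p of 0.841 for Il17c, Ccl6, Cxcl16 and Il17b (limma), and 0 ligands passed. Of 1746 genes at an unadjusted p under 0.05, 3 were ligands that were higher (Ccl6, Cxcl16 and Il1a; 2.41% of all genes) and 2 were ligands that were lower (Il17b and Il17c; 3.38%). No ligand was separated on all arrays (0.123% of all genes higher and 0.381% lower). Over the 12 arrays 5 lay above (4.73%) and 4 below (7.64%). There 3 genes passed, all higher (0.00995%) and none a ligand, while an unadjusted p under 0.05 was reached by 4 higher ligands (Ccl3, Ccl6, Ccl9 and Cxcl16; 3.14%) and 2 lower ones (Il17c and Il19; 1.97%). Ccl6 differed by 2.64 on the 12 and 0.10 on the 8 arrays, Cxcl16 by 1.05 and 0.40, and Il17c by -0.53 and -0.52. Without metastasis 1 Ccl6 differed by 0.76, Cxcl13 by 0.39, Ccl9 by 0.28, Ccl24 by 0.17 and Il1a by 0.29. Cxcl11 differed by -0.15 without metastasis 3, and the median of the homeostatic and mucosal list was -0.074 without tumour bladder 5. The macrophage list was higher in 11 of 12 genes (median 0.52), and its part was not tested.

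Set against normal bladders, metastases had higher means of Ccl6, Cxcl2, Cxcl10, Il33 and Cxcl16 and lower means of Cxcl14, Il17c and Il17d. Ccl6 was 1.88 (SE 0.59) higher, and Cxcl2 0.85 (SE 0.36). Cxcl10 was at 5.21 ± 0.09 in metastases (SD, n = 4) and 4.76 ± 0.14 in normal bladders (SD, n = 5), a log2 difference of 0.46 (SE 0.20). It was the 1 ligand whose groups did not overlap, and its mean over all arrays, 5.09, lay in the dim part. Il33 was at 5.62 ± 0.41 in metastases (SD, n = 4) and 4.91 ± 0.45 in normal bladders (SD, n = 5), a log2 difference of 0.72 (SE 0.30). Cxcl16 was higher by 0.63 (SE 0.30). All 4 metastases lay above the normal mean for each of these 5. Cxcl14 was at 6.40 ± 0.78 in metastases (SD, n = 4) and 7.60 ± 0.83 in normal bladders (SD, n = 5), a log2 difference of -1.20 (SE 0.53). Il17c and Il17d differed by -0.40 (SE 0.16) and -0.34 (SE 0.15), and Ccl17 by -0.46 (SE 0.24). For these 4, all 4 metastases lay below the normal mean. All 4 monocyte-attracting ligands and all 4 members of the IL-1 family were higher, with medians of 0.36 for both lists. Without metastasis 1, 2 monocyte-attracting ligands were higher and 2 (Ccl7 and Ccl12, by -0.38 and -0.31) lower, with a median of -0.08, while the 4 IL-1 family members stayed higher with a median of 0.20. In all, 38 ligands were higher and 28 lower (median 0.025, against -0.013 and 47.3% of all genes higher), and 44 and 22 with arrays centred (59.7%).

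No ligand passed here either (limma, adjusted p = 0.719 for Ccl6). Of 2081 genes at an unadjusted p under 0.05, 5 were ligands that were higher (3.1% of all genes) and 3 were ligands that were lower (3.81%), as named above. The separation seen for Cxcl10 was shared by 1.06% of all genes in that direction, and 0 ligands were separated in the other (1.79%). Cxcl10 differed by 0.52 over the 12 arrays and 0.44 over the 8, Il33 by 1.48 and 0.09, and Ccl6 by 3.89 and 0.12. Cxcl14 differed by -2.62 over the 12 and -0.08 over the 8. On the 12 arrays 17 ligands lay above (22.1%) and 15 below (25%) normal bladders 1 and 2, from 2 arrays a group. There 3 genes passed, all higher (0.00995%) and none a ligand, and an unadjusted p under 0.05 was reached by 9 higher ligands (3.68%) and 3 lower ones (2.99%). Cxcl13 differed by 1.96 (SE 0.99) with all arrays. Leaving out metastasis 1 gave 0.86 for Cxcl13, 1.27 for Ccl6 and 0.61 for Cxcl2. The smooth muscle list was lower in 7 of 7 genes (median -1.74) and the macrophage list higher in 11 of 12 (median 0.66), and their part was not tested.

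The palbo metastasis is a lone array and allows no test. It stood at least 1 above the mean of the 4 metastases for Cxcl13, Ccl8 and Ccl5 (1.56% of all genes) and for no ligand at least 1 below it (1.55%). Cxcl13 was at 13.41 there and at 10.22 ± 2.31 in metastases (SD, n = 4), and Ccl8 at 10.11 and 8.13 ± 2.30 in the same groups. Both were within the range of the metastases, below metastasis 1. Ccl5 was at 6.44 there, above all 4 metastases, which averaged 5.37 ± 0.30.

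Receptors and feedback genes of the same pathways gave no call. Of 52 receptors for chemokines or interleukins, 37 were higher and 15 lower in tumour than in normal bladders (median 0.038). Among all genes 53.1% were higher there, with a median of 0.012. In treated bladders 8 were higher and 44 lower than in tumour bladders (median -0.11), against 42.6% of all genes higher (median -0.023). In metastases 21 were higher and 31 lower than in tumour bladders (median -0.046). This was near the share over all genes, 43.9% higher with a median of -0.026. These counts were made without centring the arrays. Ccr3, the eosinophil receptor of Ccl11 and Ccl24, was at 5.18 ± 0.40 in tumour bladders (SD, n = 7) and 4.75 ± 0.16 in normal bladders (SD, n = 5). It was at 4.76 ± 0.35 in treated bladders (SD, n = 3). Il6ra, the receptor of IL-6, was at 6.27 ± 0.31 in metastases (SD, n = 4), 5.76 ± 0.31 in tumour bladders (SD, n = 7) and 5.73 ± 0.16 in normal bladders (SD, n = 5). Il10ra, a chain of the IL-10 receptor, was at 5.70 ± 0.47, 5.12 ± 0.31 and 4.98 ± 0.44 in the same groups. Their differences from tumour bladders were 0.51 (SE 0.16) and 0.59 (SE 0.23), with a limma adjusted p of 0.841 for both. Il18r1 was higher in tumour than in normal bladders, by 0.24 (SE 0.10). Il22ra2 differed by -0.28 (SE 0.15) between treated and tumour bladders. Between treated and normal bladders, Xcr1 and Cx3cr1 differed by -0.41 (SE 0.24) and -0.29 (SE 0.25). None of these receptors passed the test. Of 15 genes induced by NF-kappaB or STAT signalling, 13 were higher and 2 lower in tumour than in normal bladders (median 0.11). In treated bladders 3 were higher and 12 lower than in tumour bladders (median -0.071). Among all genes 53.1% and 42.6% were higher in these comparisons, and none of the 15 passed the test. The mean of this list was 5.69 on tumour bladder 6 and 5.31 to 5.47 on the other tumour bladders. On metastasis 1 it was at 5.64 and on the palbo metastasis at 5.53. Its lowest arrays were normal bladders 1 and 2, at 5.24 and 5.21.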

How the data were processed

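RNA of 20 samples was hybridised to Affymetrix arrays. The authors deposited log2 levels made with RMA in Affymetrix Expression Console, per the submitters' processing notes; versions and genome build are not given in the sources used here, and the log base was taken as 2. Of 65956 rows, 30604 had 1 gene symbol in the platform annotation, 2146 several and 33206 none. The row with the highest mean stood for each of 30145 genes. The members and lists were chosen with earlier results of these data known. Groups came from the labels. limma 3.58.1 (R 4.3.3; lmFit and eBayes, all groups in 1 fit, no covariate) was tested on simulated data. Per comparison, the 4 ligands with the smallest unadjusted p in each direction, the 12 with the largest SD, the brightest of each role group, and 2 pathway genes were named; others complete a role group. Nothing says that arrays came from separate animals, so p-values measure the spread between these samples. The 8 arrays were found from deviations from each row's mean. Their deviations had an SD above 0.3 in dim rows (means from 4.5 to 5). In rows with a mean of 7 or more, they had no correlation of 0.25 or more with those of another array. Promoters came from RefSeq. Some engineered alleles are not reported here. Alternatives were: only the groups compared, array weights, dim genes left out, quantile normalization again, arrays centred, mean of all rows, replicate block, the 8 arrays left out or as a term, the palbo metastasis joined to the metastases, and leaving out every array in turn. A fit on the 8 arrays alone and role list medians without each array were chosen after seeing the data.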

Additional observations from a re-analysis of the deposited data

Results flagged for a closer look

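For the 35 ligands named by the rule, the highest and lowest array in each of the 3 groups of 4 or more arrays were compared with the rest of the group by Dixon's criterion. It picked 7 of 105 such cases. Since these ligands were partly chosen for their spread, the usual rate of about 1 in 20 is no yardstick for that count; over all 66 ligands it picked 11 of 198 (5.56%) and over all genes 5.85%. Of the 7, 5 were tumour bladder 6. Il1b was at 7.60 there, against 4.90 to 5.77 on the other tumour bladders, and Cxcl9 at 6.64, against 4.64 to 5.06. Cxcl3 was at 6.46, against 5.60 to 5.95, and Cxcl1 at 5.92, against 5.01 to 5.40. Ccl19 was low there, at 4.56, against 4.85 to 5.0. Ccl17 was at 6.31 on tumour bladder 3, against 4.94 to 5.25 on the other tumour bladders. Il34 was at 5.39 on metastasis 4, with the 3 other metastases all at 5.45.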

How the results depend on the processing

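No ligand passed the limma test under any alternative run. Of 40 ligand differences, those with the smallest p in each comparison and direction, 36 kept their direction under every alternative, and 781 of 786 values did. Il1a differed by 0.20 between tumour and normal bladders without the 8 arrays, against -0.25 with them, and by -0.098 between treated and tumour bladders with array weights, against 0.19 without. With each array left out in turn, the Ccl19 difference between treated and tumour bladders ran from -0.036 (treated bladder 1 out; -0.0029 with treated bladder 2 out) to 0.28, against 0.08 with all arrays. The Cxcl10 difference between treated and normal bladders ran in the same way from -0.0014 (treated bladder 3 out) to 0.32, against 0.17 with all arrays. Over all genes, 3 passed between metastases and tumour bladders without the 8 arrays, and 3 between metastases and normal bladders; 1 passed in the comparison of metastases with normal bladders when only these groups were fitted, against 0 in each with all groups. The median ligand difference between metastases and tumour bladders was 0.00065 with arrays centred. The causes were not tested. Deviations of same-numbered arrays from their group means had correlations from -0.506 to 0.330. The labels do not say whether a shared number marks a shared animal. With so few arrays a group these correlations cannot decide it. With the replicate block 0 genes and 0 ligands passed in all 5 comparisons, and genes at an unadjusted p under 0.05 numbered 1772 (tumour minus normal bladders), 400 (treated minus tumour bladders), 1896 (metastases minus tumour bladders), 262 (treated minus normal bladders) and 2098 (metastases minus normal bladders), against 1281, 103, 1746, 108 and 2081 without it. Dim ligands near background and the number of arrays limit what can be detected.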
